A study of Mus musculus with 4 samples.

Results

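Genes that mark endothelial cells, the lining of blood vessels, were examined in cultures of osteoclast precursor cells. The members were Kdr, Robo4, Eng, Emcn, Pecam1, Cdh5 and Flt1, matched by exact symbol in the table of gene counts. All 7 were found among the 53801 genes listed, with a single gene ID each, and all 7 were among the 17462 genes that passed the filter on low counts. RNA was sequenced from precursor cells of wild-type C57BL/6 mice, which can fuse into bone-resorbing osteoclasts. The cells came from 2 mice and are numbered precursor cells 1 and 2 in the labels, and each number was taken to be 1 mouse. Cells of each number were given DKK1 at 200 ng/ml or PBS for 3 h, which gave 4 libraries in 2 pairs. DKK1 is a secreted protein that blocks Wnt signals at the cell surface, and PBS is the saline control. The tissue of origin, the age of the mice and the growth factors in the cultures are not stated in the sources used here, and each preparation was sequenced as 1 library per treatment.

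Endothelial cells are held together by VE-cadherin and take their growth signals from vascular endothelial growth factor (VEGF) through receptor tyrosine kinases. In bone, capillaries rich in endomucin run close to the growth plate and to bone-forming cells, and marrow sinusoids are lined by endothelium that shares several receptors with macrophages. Some of these genes are not exclusive to endothelium: Pecam1, Eng and Flt1 are also known from monocytes, macrophages or platelets, and Emcn from blood stem cells.

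The libraries held 41163663 to 53537927 counts. The strongest division among them was by preparation: principal component 1 carried 76.1% of the variance of log2 CPM (counts scaled to library size) and parted precursor cells 1 from 2. The labelled cell type was set beside markers of its lineage: Csf1r, the receptor for M-CSF, averaged 2293 CPM over the libraries and Adgre1, a surface protein of macrophages, 2133 CPM. Other monocyte and macrophage markers were lower, such as Ccr2 at 65.7 CPM and Cx3cr1 at 18.5 CPM. The neutrophil marker Ngp averaged 2155 CPM, so these levels do not show how pure the cultures were. Other endothelial genes spanned a wide range: of 40 listed, 22 had fewer than 100 counts in each library and 13 had at least 100 in each. Vwf, which platelets and megakaryocytes also hold, had 4026 to 7005 counts per library, Esam, an adhesion molecule of junctions and platelets, 353 to 523, and Tie1, a receptor kinase, 226 to 590. At the low end, Cldn5, the tight junction protein of vessels, had 4 counts in PBS 1, 0 in DKK1 1, 0 in PBS 2 and 6 in DKK1 2, and Lyve1, of lymphatic and sinusoidal vessels, had 5, 5, 0 and 0. Since these are bulk libraries, fewer cells of a type and less RNA per cell cannot be told apart.

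Per length of gene, the endothelial genes were far below the macrophage receptor. CPM per kilobase of exon were compared, because longer genes collect more reads. The length was that of the merged exons of all annotated transcripts of a gene, which can exceed the length of any single transcript. Eng, which encodes endoglin, a co-receptor for TGF-beta and BMP ligands, was the highest member at 8.97 and 9.14 CPM per kilobase in PBS 1 and DKK1 1 and 20.95 and 21.3 in PBS 2 and DKK1 2, or 2.55% to 4.74% of the level of Csf1r. Pecam1, an adhesion molecule of endothelial junctions, platelets and leukocytes, followed with a mean of 4.52 CPM per kilobase. Kdr, the main signalling receptor for VEGF, averaged 4.13, and Cdh5, which encodes VE-cadherin itself, 2.25. Flt1, the VEGF receptor that also binds placental growth factor, averaged 0.934 CPM per kilobase, Emcn, the mucin endomucin, 0.487 and Robo4, a guidance receptor of endothelium, 0.227.

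That order was not fixed across the libraries. Eng lay above Pecam1, and Cdh5 above Flt1, with ranges over the 4 libraries that did not overlap. The ranges of Pecam1 and Kdr overlapped, and so did those of Kdr and Cdh5: in each case the first-named gene was the higher in 2 of 4 libraries, those of 1 preparation. Kdr ranked below Cdh5 in precursor cells 1 (means of 1.07 and 1.85 CPM per kilobase) and above Pecam1 in precursor cells 2 (7.19 and 5.29). Flt1, Emcn and Robo4 kept their order in 4 of 4 libraries, although their ranges over the libraries overlapped. All these orders are per kilobase and depend on the merged exon length, 13504 bases for Flt1 and 4203 for Cdh5. By mean CPM alone Flt1 (12.6) lay above Cdh5 (9.46), although not in DKK1 1 (7.88 and 8.92), and Kdr (37.3) above Pecam1 (28.2).

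**Figure D1:**
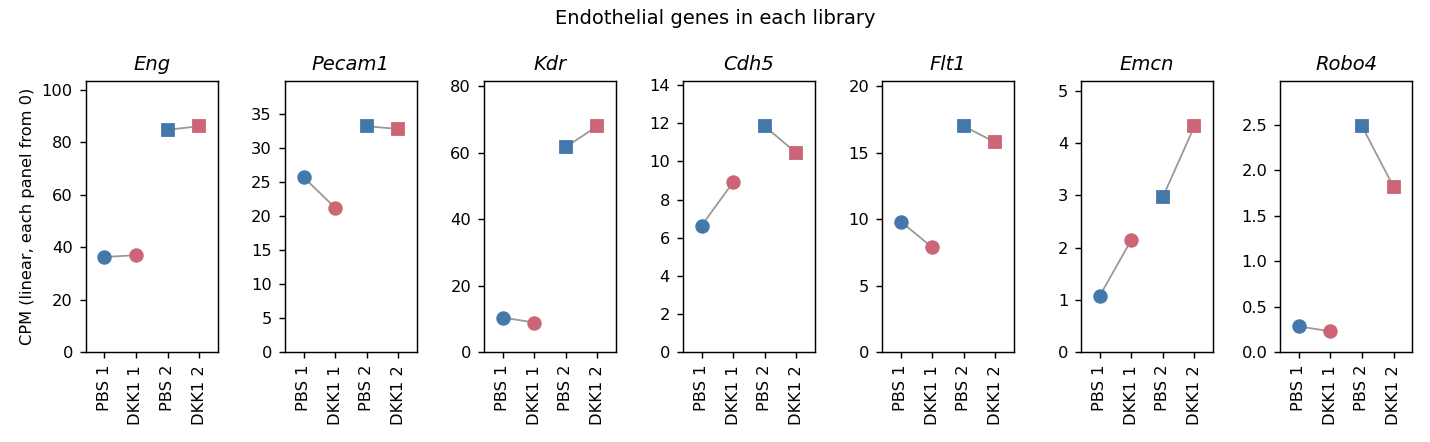
CPM of each endothelial gene (vertical axis, linear, from 0 in each panel) in PBS 1, DKK1 1, PBS 2 and DKK1 2, with circles for precursor cells 1, squares for precursor cells 2, blue for PBS and red for DKK1, and lines joining the pairs. Each point is 1 library, and both squares lie above both circles for all 7 genes.

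The first comparison asked whether DKK1 changed these genes within 3 h. None of them passed the test: 0 of 7 had an adjusted p under 0.05 in the paired edgeR quasi-likelihood fit, where 0.0515% of all genes tested did. At an unadjusted p under 0.05 the count was also 0 of 7, beside 4.47% of all genes tested. DESeq2 and limma-voom called 0 of 7, with 46 and 2 calls over all genes. At such low shares, 0 of 7 says little about these genes. For each of the 7 genes the DKK1 values overlapped the PBS values. That overlap was fixed in advance, because both libraries of precursor cells 2 lay above both of precursor cells 1, so it says nothing about DKK1. Over all genes tested, 16.2% had both DKK1 libraries on the same side of both PBS libraries. The median log2 change over the 7 genes was 0.01, beside -0.001 over all genes tested.

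Emcn had the smallest p of the 7 with DKK1. Its level was 1.08 CPM in PBS 1 and 2.15 in DKK1 1, and 2.97 in PBS 2 and 4.32 in DKK1 2, from 61, 122, 115 and 188 counts. The DKK1 library was the higher within each pair, but DKK1 1 lay below PBS 2. The fitted change was 1.64-fold (log2 0.72, 95% CI -0.005 to 1.44; edgeR adjusted p = 0.959). Within the pairs the DKK1 to PBS ratio was 1.99 (95% counting interval 1.45 to 2.75) and 1.45 (1.15 to 1.85), and such intervals cover counting error only. The authors' deposited tables, which set 1 library against 1, list Emcn at an FDR of 0.000302 and 0.0268 for these pairs. FDR values were under 0.05 for 19.0% and 16.7% of the genes they list. Emcn was not marked as significant, a mark given to 0.921% and 0.987% of those genes. Stromal and pericyte markers, whose cells lie beside these vessels, summed to 68.6 and 97.3 CPM in PBS 1 and DKK1 1 and to 124 and 118 CPM in PBS 2 and DKK1 2, and their part in the Emcn values was not tested.

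Neither VEGF receptor passed the test with DKK1. Kdr stood at 10.4 CPM in PBS 1 and 8.93 in DKK1 1, and at 61.7 in PBS 2 and 68.0 in DKK1 2, so the pairs went in opposite directions. Its fitted log2 change was 0.01 (95% CI -0.29 to 0.30; edgeR adjusted p = 0.998). Flt1 stood at 9.83, 7.88, 17.0 and 15.8 CPM in PBS 1, DKK1 1, PBS 2 and DKK1 2, lower with DKK1 in both pairs. Its log2 change was -0.20 (95% CI -0.55 to 0.14, edgeR adjusted p = 0.959), a difference that did not pass the test. The authors marked neither Kdr nor Flt1 as significant in either pair, where 0.921% and 0.987% of the genes listed were marked. The authors' deposited tables list Flt1 at an FDR of 0.0300 in the first pair and 0.555 in the second. Kdr was listed at 0.155 and 0.214.

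Among the junction proteins, Cdh5 went from 6.64 CPM in PBS 1 to 8.92 in DKK1 1 and from 11.8 in PBS 2 to 10.4 in DKK1 2. Those opposite differences gave a log2 change of 0.12 (95% CI -0.37 to 0.60; edgeR adjusted p = 0.978). Pecam1 stood at 25.7 and 21.2 CPM in PBS 1 and DKK1 1 and at 33.1 and 32.7 in PBS 2 and DKK1 2, with a log2 change of -0.15 (95% CI -0.42 to 0.13; edgeR adjusted p = 0.961). The difference in Pecam1 was thus mostly that of precursor cells 1, where the ratio was 0.825 (counting interval 0.764 to 0.891), while in precursor cells 2 it was 0.988 (0.915 to 1.07). The authors marked neither Cdh5 nor Pecam1 as significant in either pair, where 0.921% and 0.987% of the genes listed were marked. In the authors' deposited tables the FDR was 0.00342 and 0.325 for Cdh5 and 0.0103 and 0.944 for Pecam1 in the first and second pair. Both were thus under 0.05 in the first pair and not in the second, beside 19.0% and 16.7% of the genes listed.

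Eng and Robo4 complete the set. Eng was almost level within the pairs, at 36.3 CPM in PBS 1 and 37.0 in DKK1 1 and at 84.8 in PBS 2 and 86.2 in DKK1 2, and its log2 change of 0.02 had the narrowest interval of the 7 genes (95% CI -0.16 to 0.21; edgeR adjusted p = 0.989). Robo4 had 16 and 13 counts in PBS 1 and DKK1 1 and 96 and 79 in PBS 2 and DKK1 2, and its log2 change of -0.43 had a 95% CI from -1.55 to 0.70 (edgeR adjusted p = 0.970). That interval is the widest of the 7 genes and includes a fall of 2-fold, which these counts could not tell from no change. The authors' deposited tables list Eng at an FDR of 0.880 and 0.899 in the first and second pair. Robo4 was listed in the second pair only, at 0.200.

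**Figure D2:**
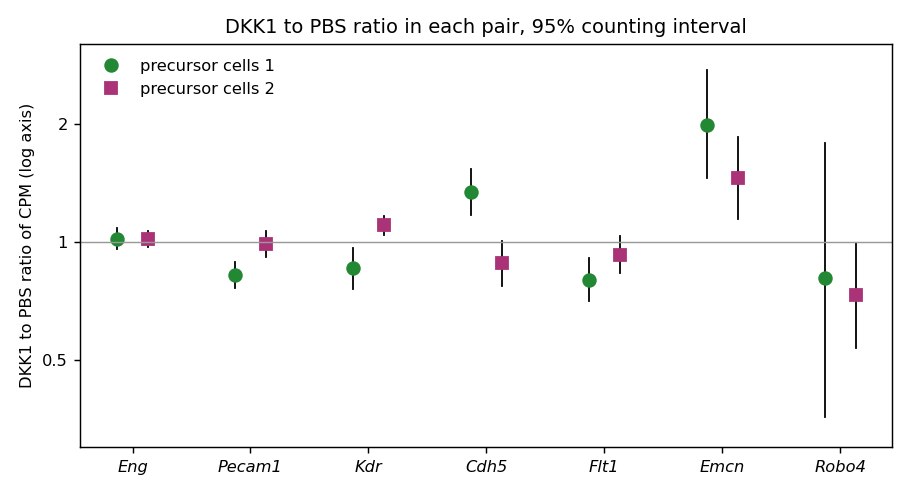
Ratio of CPM in the DKK1 library to that in the PBS library (vertical axis, log scale) for each endothelial gene, with circles for precursor cells 1, squares for precursor cells 2 and bars for the 95% counting interval of the ratio. Emcn lies above 1 in both pairs, Kdr and Cdh5 lie on opposite sides of 1, and Eng lies close to 1.

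Other genes of the same pathways, from lists chosen with earlier results of these data known, gave 0 calls with DKK1. Of 40 other endothelial genes, 34 were tested, 17 had a positive change and 0 were called by edgeR (median log2 -0.003). Ptprb, the phosphatase that acts on VE-cadherin, had 18 and 40 counts in PBS 1 and DKK1 1 and 25 and 64 in PBS 2 and DKK1 2, with the DKK1 library higher in both pairs (log2 1.17, edgeR adjusted p = 0.959). Sox18, a transcription factor of vessels, had 50 and 14 counts in the first pair and 48 and 28 in the second, lower with DKK1 in both pairs (log2 -1.32, edgeR adjusted p = 0.959). Likewise 0 of 6 VEGF ligands and co-receptors, 0 of 13 BMP and TGF-beta genes, 0 of 7 Slit and Robo genes and 0 of 6 catenins and partners of VE-cadherin were called, with median log2 changes of 0.02, 0.04, -0.0003 and 0.01.

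The second comparison set precursor cells 2 against precursor cells 1 in the same fit. All 7 endothelial genes were higher in both libraries of precursor cells 2 than in both of precursor cells 1, a pattern that 33.7% of all genes tested showed. By edgeR, 6 of 7 passed at an adjusted p under 0.05, all higher in precursor cells 2; over all genes tested 33.8% were called and 17.9% were called higher in precursor cells 2. The summed level of the 7 genes was 90.2 and 86.3 CPM in PBS 1 and DKK1 1 and 214 and 219 CPM in PBS 2 and DKK1 2. Their median log2 difference was 1.18, beside -0.003 over all genes tested. The 7 genes were chosen with earlier results of these data known, so these counts and medians are no support for a direction. No preparation was replicated, so the test compares these 2 preparations and nothing wider.

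Kdr and Robo4 had the largest differences. Kdr rose from 10.4 and 8.93 CPM (PBS 1 and DKK1 1) to 61.7 and 68.0 CPM (PBS 2 and DKK1 2), 6.70-fold (log2 2.74, 95% CI 2.44 to 3.05; edgeR adjusted p = 4.76e-05). Robo4 rose from 0.283 and 0.229 CPM to 2.48 and 1.82 CPM, 8.31-fold (log2 3.06, 95% CI 1.77 to 4.34; edgeR adjusted p = 0.00743). The interval of Robo4 was wide and contained that of Kdr. The ratio of precursor cells 2 to 1 for Kdr was 5.92 between the PBS libraries (95% counting interval 5.41 to 6.49) and 7.61 between the DKK1 libraries (6.93 to 8.38). For Robo4 it was 8.77 (5.13 to 15.9) and 7.93 (4.38 to 15.5), with intervals that overlapped.

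The promoters of these genes are shown because Kdr and Robo4 had the largest differences between the preparations, and Flt1, the sister receptor of Kdr, is shown for contrast as a gene with a smaller difference. Each covers 250 bases before to 50 after the RefSeq start site (GRCm38.p6), on the strand of the gene, at chr5:75978406-75978705 (minus strand) for Kdr, chr9:37401722-37402021 (plus strand) for Robo4 and chr5:147725962-147726261 (minus strand) for Flt1. Capitals mark GGAA and its reverse complement TTCC, the core of sites for ETS factors, a family that drives many endothelial genes.

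Kdr: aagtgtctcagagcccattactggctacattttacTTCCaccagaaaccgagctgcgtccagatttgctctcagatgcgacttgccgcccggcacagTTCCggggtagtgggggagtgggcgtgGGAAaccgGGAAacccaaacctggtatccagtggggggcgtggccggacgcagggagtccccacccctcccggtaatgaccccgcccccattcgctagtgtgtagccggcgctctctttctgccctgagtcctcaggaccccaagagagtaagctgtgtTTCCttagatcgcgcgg

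Robo4: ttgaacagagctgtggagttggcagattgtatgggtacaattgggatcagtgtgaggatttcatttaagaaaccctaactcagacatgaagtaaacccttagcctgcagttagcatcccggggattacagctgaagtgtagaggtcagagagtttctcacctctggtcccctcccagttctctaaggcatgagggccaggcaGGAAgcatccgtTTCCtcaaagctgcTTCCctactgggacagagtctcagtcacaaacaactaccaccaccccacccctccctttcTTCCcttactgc

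Flt1: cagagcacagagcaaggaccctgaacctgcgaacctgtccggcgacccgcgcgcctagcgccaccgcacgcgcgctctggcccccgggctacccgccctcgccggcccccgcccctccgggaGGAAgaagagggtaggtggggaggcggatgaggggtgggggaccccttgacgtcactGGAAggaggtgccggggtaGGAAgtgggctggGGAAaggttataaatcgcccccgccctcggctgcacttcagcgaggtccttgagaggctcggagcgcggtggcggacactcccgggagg

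On both strands, GGAA occurs 5 times in the window of Kdr, 4 times in that of Robo4 and 4 times in that of Flt1. Such cores are common: 96.0% of 32851 promoter windows of this length hold at least 1, with a median of 3, and 28.6% hold 5 or more. The GC box core GGGCGG occurs 2 times in Kdr, 3 times in Flt1 and 0 times in Robo4, and 35.7% of all windows hold it. GATAAG, a core bound by GATA factors, occurs 0 times in each of the 3 windows and in 7.44% of all windows. Promoter entries were matched for 5 of the 7 genes. Emcn held 6 GGAA cores and Eng 4. The promoters of Pecam1 and Cdh5 were not analysed here. These matches describe the letters only.

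The remaining VEGF receptor and the BMP co-receptor differed less. Eng was 2.33-fold higher in precursor cells 2 (log2 1.22, 95% CI 1.04 to 1.41; edgeR adjusted p = 0.000162), and its factor was 2.34 between the PBS libraries and 2.33 between the DKK1 libraries. Exons of Eng overlap those of Fpgs, on the opposite strand, by 61 bases. The strand of the counting is not stated, and summed with Fpgs the log2 difference was 0.79 (edgeR adjusted p = 0.000666). Flt1 was 1.86-fold higher (log2 0.89, 95% CI 0.55 to 1.24; edgeR adjusted p = 0.00552). Its call was lost without PBS 2 (adjusted p = 0.0628) or DKK1 2 (0.0563), in fits without the pairing.

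Emcn was 2.26-fold higher in precursor cells 2 (log2 1.18, 95% CI 0.46 to 1.89; edgeR adjusted p = 0.0266). This call was the least secure of the 6: it ended without the term for treatment (adjusted p = 0.0547), without the filter on low counts (0.0936), with DESeq2 (0.118) and without PBS 1 (0.181), PBS 2 (0.120) or DKK1 2 (0.322). Pecam1 was 1.41-fold higher (log2 0.50, 95% CI 0.22 to 0.77; edgeR adjusted p = 0.0190), a call that ended without the filter (0.0819) and without DKK1 1 (0.0729), PBS 2 (0.121) or DKK1 2 (0.128). Cdh5 was the member that did not pass, at log2 0.52 (95% CI 0.03 to 1.00; edgeR adjusted p = 0.0954). Its factor between the preparations was 1.78 in the PBS libraries and 1.17 in the DKK1 libraries, and without DKK1 1 it was called (adjusted p = 0.0404). The call of Robo4 ended without PBS 2 (0.0534), while Kdr and Eng kept theirs in every alternative run.

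**Figure D3:**
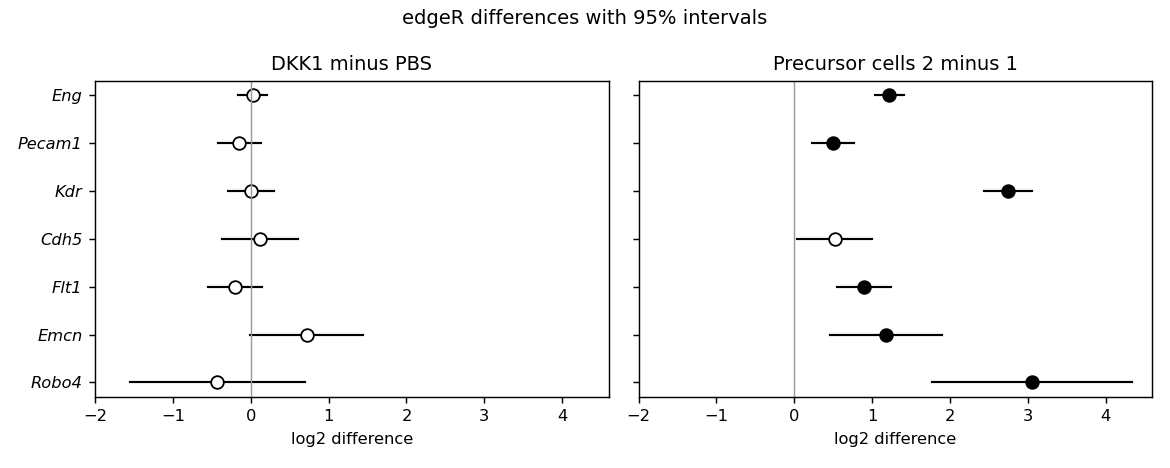
edgeR log2 differences (horizontal axes) of the 7 endothelial genes for DKK1 minus PBS on the left and precursor cells 2 minus 1 on the right, with 95% intervals as lines and filled circles for an adjusted p under 0.05. The left panel has 0 filled circles and every interval includes 0, and the right panel has 6, with Kdr at 2.74 and Robo4 at 3.06.

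The 7 genes did not share a single profile over the 4 libraries. Likeness was measured as the Euclidean distance between log2 CPM profiles centred on their means, as a description over 4 libraries. Kdr and Robo4 lay 0.43 apart, Pecam1 and Flt1 0.40 and Eng and Flt1 0.42, whereas Kdr and Cdh5, both used as endothelial markers, lay 2.27 apart. Candidates were 11617 genes with a mean of at least 1 CPM, leaving out unnamed, clone-named, Gm and Rik gene models and immunoglobulin segments. Among these candidates, the nearest to Kdr were H2-Ab1, a chain of MHC class II (distance 0.13), and Gbp4, an interferon-induced guanylate-binding protein (0.17). The nearest to Robo4 were Mgst2, a glutathione transferase (0.17), and Tlr3, a receptor for double-stranded RNA (0.21).

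For the genes with smaller differences the nearest profiles lay closer still in most cases. They were those of Etnk1 and Ogfr for Eng (distances of 0.02 and 0.03), Zfp652 and Rnf170 for Pecam1 (0.02 and 0.03) and Rin3 and Spata2l for Cdh5 (0.02 and 0.02). Flt1 lay nearest to Col12a1, a fibril-associated collagen (0.05), and to Apba1 (0.06). Emcn lay nearest to Dlc1 (0.20) and Zfp931 (0.21). With 4 libraries, many genes share any given profile.

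Other endothelial genes went both ways between the preparations. Of the 34 tested, 7 were called higher and 4 lower in precursor cells 2, which is 32.4% called beside 33.8% over all genes, with a median log2 difference of 0.51. Cd34, a sialomucin of endothelium and blood progenitors, also stands in the list of progenitor markers and Vwf in that of megakaryocytes. Flt4, the VEGF receptor of lymphatic and sinusoidal vessels, had 8 and 30 counts in PBS 1 and DKK1 1 and 144 and 158 in PBS 2 and DKK1 2 (log2 3.44, SE 0.42; edgeR adjusted p = 0.00236). Plvap, the diaphragm protein of fenestrated vessels, rose from 3.58 and 2.22 CPM to 10.4 and 8.86 CPM (log2 1.74, SE 0.21; edgeR adjusted p = 0.00212). Stab2, a scavenger receptor of sinusoids, had 0 and 3 counts in PBS 1 and DKK1 1 and 57 and 32 in PBS 2 and DKK1 2 (edgeR adjusted p = 0.00764), and no fitted fold is given for it because it depends on the prior count.

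The others called higher were Cd34 (log2 1.08), Adgrl4 (0.96), Fabp4 (0.40) and Cyyr1 (2.73). Flt4, Stab2 and Cyyr1 passed the filter on low counts only through precursor cells 2, so the count of 7 is no support for a direction. Called lower were Efnb2, the arterial ephrin ligand (log2 -1.44), Tie1 (-0.62), Selp, an adhesion molecule of endothelium and platelets (-0.55), and Vwf (-0.23). Their edgeR adjusted p were 0.0431, 0.0493, 0.0211 and 0.0403, so most lay near the threshold. Erg, a transcription factor of endothelium, was not called (log2 0.60, edgeR adjusted p = 0.0560), and neither was Tek, the angiopoietin receptor, with 18 to 50 counts per library.

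**Figure D4:**
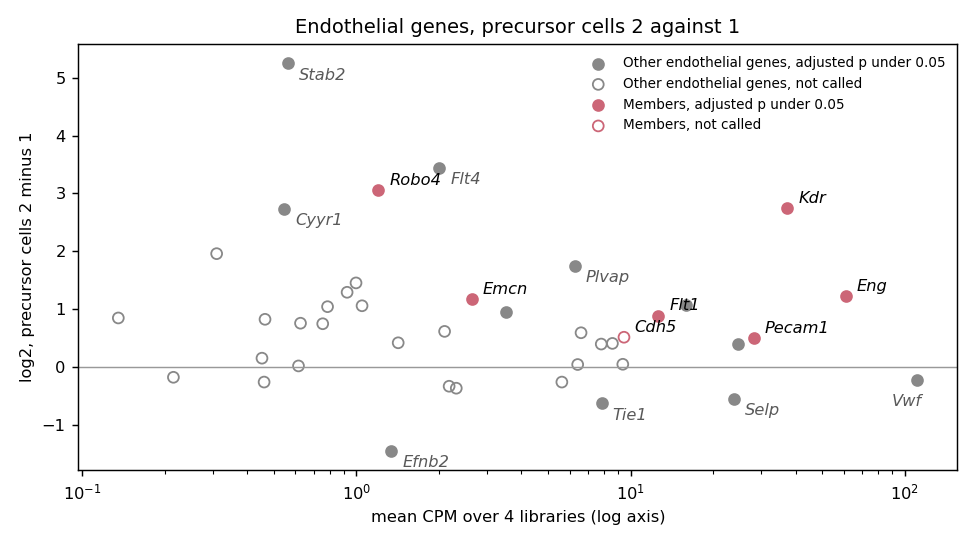
Mean CPM over the 4 libraries (horizontal axis, log scale) against the edgeR log2 difference of precursor cells 2 minus 1 (vertical axis) for the 7 endothelial genes (red) and 34 other endothelial genes (grey), filled where the adjusted p is under 0.05. The 7 genes all lie above 0, and the others lie on both sides of it; the fitted position of Stab2, with 0 counts in PBS 1, depends on the prior count.

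Ligands and partners of the 7 genes were read against the share of all genes called between the preparations, 33.8%, with 17.9% called higher. Of 6 VEGF ligands and co-receptors tested, 4 (66.7%) were called, all higher in precursor cells 2. Vegfa, the ligand of Kdr and Flt1, rose from 24.2 and 18.9 CPM to 51.9 and 49.8 CPM (log2 1.25, SE 0.11; edgeR adjusted p = 0.000624), and the co-receptors Nrp1 (log2 0.67) and Nrp2 (0.19) were also called. Pgf, placental growth factor, a ligand of Flt1, had 21 counts in PBS 2 and 37 in DKK1 2, against 4 in PBS 1 and 0 in DKK1 1, and passed the filter only through precursor cells 2, so the count of 4 is no support for a direction.

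Of 13 genes that act with endoglin, 3 were called higher and 2 lower, which is 38.5% and near the 33.8% of all genes. Acvrl1, the receptor kinase that pairs with endoglin, rose (log2 0.51, SE 0.09; edgeR adjusted p = 0.0105), as did Tgfbr1 (0.93) and Smad1 (0.47), while the target genes Id1 (-0.75) and Id3 (-0.43) fell. Of 7 Slit and Robo genes 4 (57.1%) were called: Unc5b, a binding partner of Robo4 (log2 1.01), Srgap1 (1.51) and Srgap2 (0.74) were higher and Robo3 (-0.60) lower. Of 6 catenins and partners of VE-cadherin, 4 (66.7%) were called lower and 0 higher: Ctnnb1 (-0.41), Ctnnd1 (-0.32), Vcl (-0.32) and Ctnna1 (-0.28). These junction genes are expressed in many cell types.

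Markers of other cells also differed between the preparations, beside 33.8% of all genes called and 17.9% called higher in precursor cells 2. Some lists were called no more often than that 33.8% and others more often. The part of these cells in the endothelial differences was not tested. All 8 neutrophil markers (100%) were called higher in precursor cells 2, with summed levels of 5135 to 5272 CPM in precursor cells 1 and 9644 to 9766 in precursor cells 2. Monocyte and macrophage markers split, with 5 called higher and 3 lower of 10 (80% called) and summed levels of 31847 to 32071 and 22482 to 23043 CPM. The lower sum was that of Lyz2, the lysozyme of myeloid cells, at 24909, 24782, 14288 and 14685 CPM in PBS 1, DKK1 1, PBS 2 and DKK1 2; the other 9 markers summed to 7065 to 7162 CPM in precursor cells 1 and 8194 to 8358 in precursor cells 2, the opposite direction. Of 10 megakaryocyte and platelet markers, 4 (40%) were called lower and 0 called higher (summed 1743 to 1838 and 1181 to 1191 CPM). Among 12 stromal and pericyte markers, 3 were called higher and 1 called lower, 33.3% in all (68.6 to 97.3 and 118 to 124 CPM). For 12 blood stem and progenitor markers the calls were 2 higher and 2 lower, also 33.3% (159 to 171 and 165 to 167 CPM). Of 6 erythroid markers tested, 4 (66.7%) were called higher (54.0 to 76.6 and 99.1 to 126 CPM). In these 6 lists, 0 markers were at 0 in all 4 libraries.

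On the mouse genome (mm10, positions from GENCODE M21), Kdr (ENSMUSG00000062960) lies on chromosome 5 from 75932827 to 75978458 and Flt1 (ENSMUSG00000029648) on the same chromosome from 147561604 to 147726011. Robo4 (ENSMUSG00000032125) lies on chromosome 9 from 37401897 to 37415115, Eng (ENSMUSG00000026814) on chromosome 2 from 32646595 to 32682669 and Emcn (ENSMUSG00000054690) on chromosome 3 from 137341067 to 137432185. Pecam1 (ENSMUSG00000020717) lies on chromosome 11 from 106654217 to 106750628 and Cdh5 (ENSMUSG00000031871) on chromosome 8 from 104101625 to 104144511. Each encodes a protein, Eng is the 1 gene of the 7 whose exons overlap another model, and 0 of 7 have a near-identical model elsewhere among the annotated transcripts.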

How the data were processed

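RNA sequencing counts per gene were taken for 4 libraries, 2 per treatment. The authors deposited raw whole-number counts. Reads went through fastp and HISAT2 with mm10, per the submitters' processing notes, while no counting program or annotation is stated in the sources used here. The authors' deposited tables, 1 per pair, hold a log2 ratio of DKK1 over PBS, p-values and FDR from an unstated test, and FPKM values made by the authors, which were not used. They compare 1 library with 1.

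Genes were tested with the quasi-likelihood test of edgeR 4.0.16 (R 4.3.3; TMM scaling; filterByExpr, minimum count 10; terms for precursor cells and treatment; 1 residual degree of freedom), with Benjamini-Hochberg adjustment over all 17462 genes tested. The labels' numbers pair the libraries: same-numbered deviations from group means correlated at 0.726. Alternatives were scaling by RLE or upper quartile, omitting the filter, requiring 1 CPM in 2 libraries, DESeq2 1.42.0, limma-voom (limma 3.58.1), no pairing (for the preparations, no term for treatment) and leaving out each library. Differences within a pair use a prior count of 2, and the ratio intervals are exact 95% binomial. The model was tested on counts simulated with 1 dispersion for all genes, with changes placed outside the genes of lowest level. It recovered 65% of 100 changes of 2-fold and 100% of 100 changes of 4-fold, with 9 false among 174 calls. Smaller changes were not simulated. Exons, lengths and overlaps come from GENCODE M21, and near-identical transcripts (95% identity over 100 bases and 50% of the shorter) from BLAST 2.17.0.

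The members and lists were chosen with earlier results of these data known. The text names the members, in each list the 2 most abundant genes and the 2 with the smallest p in each test (fewer are printed), and the 2 nearest profiles per member. Cldn5, Lyve1, Esam, Stab2, Cyyr1, Adgrl4, Cd34, Tie1, Selp, Efnb2, Erg, Tek, Pgf, Smad1, Id3, Srgap1 and Adgre1 were named, and the limit of 100 counts and the macrophage sum without Lyz2 chosen, after their values were seen. The labels do not say whether libraries of 1 treatment came from separate cultures beyond the 2 mice.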

Additional observations from a re-analysis of the deposited data

Results flagged for a closer look

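Kdr and Cdh5 had differences of opposite sign with DKK1 in the pairs. For Kdr the log2 difference of DKK1 and PBS was -0.22 in the first pair (precursor cells 1) but 0.14 in the second, which differ by 0.36. For Cdh5 it was 0.42 and -0.18, which differ by -0.60 (second minus first). With 1 pair per preparation, the difference between pairs was not tested.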

How the results depend on the processing

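The count of endothelial genes called with DKK1 was 0 of 7 in every alternative run that kept all libraries. Without the filter or without the replicate block, 0 of all genes were called, so 0 of 7 says nothing about these genes there. The fits without a library also lack the block, so their counts with DKK1 add nothing either. The count between the preparations was 6 with RLE and upper-quartile scaling, the stricter filter and limma-voom, 5 with DESeq2, 5 without the term for treatment (the counterpart here of the fit without the replicate block), and 4 without the filter. It was 2 to 6 when a library was left out, lowest without PBS 2. Fits that leave out a library have no pairing and hold 1 preparation in excess in the DKK1 comparison, so a lone library is assumed to vary like the others. Over all genes, DKK1 gave 9 calls, but 46 with DESeq2, 15 with the stricter filter, 5 with upper-quartile scaling, 2 with limma-voom, 0 without the filter (911 at an unadjusted p under 0.05), 0 without the replicate block (115) and 0 in each fit without a library; edgeR's test was used except where DESeq2 or limma-voom is named. Between the preparations 5905 genes were called, 3507 without the filter and 3194 to 4570 without a library. The change with DKK1 turned sign for Kdr with the stricter filter (log2 -0.00042) and DESeq2 (-0.0287), and for Eng summed with Fpgs (-0.0154). With a library left out it ranged from -2.004 to 1.88 for Kdr, -2.54 to 1.82 for Robo4, -0.70 to 0.76 for Eng, -0.47 to 0.15 for Pecam1, -0.29 to 0.55 for Cdh5, -0.76 to 0.27 for Flt1 and 0.10 to 1.58 for Emcn. Between the preparations all 7 genes kept their direction in every alternative run. The cause of lost calls was not tested. Fewer libraries enter the fits without a library, and more genes enter the fit without the filter. The fit without the term for treatment, in which the call of Emcn was lost, held the same libraries and the same 17462 genes as the main fit.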
